A study of Mus musculus with 43 samples.

Results

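The change of gene expression from fibroblast to day 8 of reprogramming was compared between cells labelled Gatad2a-/- and isogenic wild-type cells. The comparison used 10 of the 43 mouse libraries of the study, chosen by system and stage alone: mouse embryonic fibroblasts (MEF) and days 2, 4, 6 and 8 of induction in the Gatad2a-/- system, and the same 5 stages in the WT-2 system. The Gatad2a-/- group was a cell line named for its genotype, and WT-2 was the wild-type line that the design text calls isogenic to it. Both lines were secondary MEF with a doxycycline-inducible cassette for the factors OKSM (Oct4, Klf4, Sox2 and Myc), so every group carried the transgenes. Induction began in serum medium with LIF, under 5% oxygen. By the design text, a medium with serum replacement, LIF and inhibitors of MEK and GSK3 followed on day 3.5, whereas the growth protocol gives the inhibitors from 48 hours. Cells of days 3 to 8 grew on irradiated human foreskin fibroblasts, and MEF and day 2 cells did not, so time, medium and feeder layer changed together in both systems. Each stage of each system was 1 library, and the labels do not tell whether stages of a system came from separate cultures. For each gene the readout was the difference in change, the change from MEF in Gatad2a-/- minus the change from MEF in WT-2 on log2(FPKM + 1), on each of the 4 days. FPKM counts fragments relative to gene length and to the mapped total of a library, so it is a level per length.

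NuRD is a chromatin complex that joins nucleosome remodelling by the Chd helicases to histone deacetylation by Hdac1 and Hdac2. Gatad2a is a zinc finger subunit that links the remodelling part of the complex to the part with the Mbd proteins. During reprogramming of fibroblasts, the induced factors silence mesenchymal and contractile genes, cells take on epithelial contacts, and the cell's own pluripotency network is switched on last.

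Gatad2a itself had 10.2 FPKM in Gatad2a-/- MEF and 9.18, 10.3, 10.52 and 14.7 FPKM on days 2, 4, 6 and 8, against 10.49 FPKM in WT-2 MEF and 11.5, 11.1, 9.50 and 9.17 FPKM on those days of WT-2. Its difference in change was 0.13 ± 0.52 on the log2 scale (SE, limma adjusted p = 0.907), so the deposited FPKM did not separate the systems at the targeted gene. The labels do not say where the gene is disrupted, so its total level cannot check the genotype. The groups are named by their labels. The MEF label was checked with the collagen and matrix list, which summed to 15958 FPKM in Gatad2a-/- MEF and 19108 FPKM in WT-2 MEF, with a median MEF difference of -0.02. Its members differed: Col1a1 had 1489 FPKM in Gatad2a-/- MEF and 1466 FPKM in WT-2 MEF, the proteoglycan gene Lum 24.9 and 289 FPKM, and the fibrillin gene Fbn1 214 and 35.8 FPKM. Both MEF libraries thus held fibroblast RNA, and they were not alike. Epithelial junction genes summed to 135 FPKM in Gatad2a-/- MEF and 10.3 FPKM in WT-2 MEF, and the part of these starting differences in the results was not tested. The libraries differed in their detected genes. Genes that reached 1 FPKM numbered 15485 to 16896 in the libraries of Gatad2a-/- and 13455 to 13983 in the WT-2 libraries. For protein-coding genes these numbers were 11189 to 12054 and 11403 to 11853, and for short RNA genes 1113 to 1608 and 156 to 171, in the same order of systems. Of the genes tested, 354 to 951 were listed at 0 in a Gatad2a-/- library and 2774 to 3156 in a WT-2 library. A 0 in these tables can be a failed estimate, and all 37 mitochondrial genes were listed at 0. The 10 genes that serve as signs of RNA quality had a summed FPKM of 2084 FPKM in Gatad2a-/- MEF and 1607 to 2644 FPKM on its 4 days, against 477 FPKM in WT-2 MEF and 352 to 496 FPKM on its 4 days. The sum does not stand for each member, since their median MEF difference was 0.05. It was 3.31 for Malat1, 2.87 for Rn7sk and 5.16 for Snord13. The histone genes Hist1h1c (-1.37), Hist1h4i (-0.75), Hist1h2bc (-0.59) and Hist2h2be (-0.45) were lower in Gatad2a-/- MEF. The part of these differences between libraries in the results was not tested. The median difference in change of all genes tested was 0.26, and that of protein-coding genes was 0.15, so the differences below are to be read against a shift of that size. For all genes it was 0.135 with quantile normalization and 0.072 with no filter on low values.

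The 2 inducible factors whose RNA best separated the courses were Sox2 and Pou5f1. Sox2, an HMG box transcription factor and one of the induced factors, had 1.63 FPKM in Gatad2a-/- MEF and 103, 83.2, 110.1 and 256 FPKM on days 2, 4, 6 and 8, against 0.162 FPKM in WT-2 MEF and 0.275, 0.237, 0.429 and 0.265 FPKM on those days of WT-2. Pou5f1, which encodes the induced factor Oct4, had 0.411 FPKM in Gatad2a-/- MEF and 8.39, 139, 529.6 and 849 FPKM on days 2, 4, 6 and 8, against 0 FPKM in WT-2 MEF and 0, 0, 0.0920 and 0.832 FPKM on those days of WT-2. Both were therefore high on the induced days of Gatad2a-/- and near 0 on every measured day of WT-2. Exon reads cannot tell transgene from endogenous RNA in these files, and WT-2 iPSC had 249 FPKM of Sox2 and 1648 FPKM of Pou5f1. The difference in change was 5.42 ± 0.71 for Sox2 and 6.54 ± 2.18 for Pou5f1 (SE). Klf4, the Krüppel-like induced factor, had 17.6 FPKM in Gatad2a-/- MEF and 44.2, 32.6, 16.9 and 46.2 FPKM on days 2, 4, 6 and 8, against 8.58 FPKM in WT-2 MEF and 14.4, 14.8, 23.9 and 20.6 FPKM on those days of WT-2, and its difference was -0.14 ± 0.80. Myc had 19.4 FPKM in Gatad2a-/- MEF and 54.5, 44.4, 15.7 and 5.64 FPKM on days 2, 4, 6 and 8, against 19.6 FPKM in WT-2 MEF and 24.9, 6.15, 6.47 and 6.17 FPKM on those days of WT-2, with a difference of 1.22 ± 0.99. The low Sox2 and Pou5f1 of WT-2 stand beside all differences that follow, and their part in them was not tested.

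The difference in change was first tested in a fit of all 10 libraries, which carries the error of the MEF libraries along with the spread between days. With Benjamini-Hochberg adjustment over 18975 genes, limma called 2 genes higher (0.0105%) and 0 lower (0%), while 2647 genes (13.9%) had an unadjusted p under 0.05. One was the small nucleolar RNA gene Snord35b, with 228 FPKM in Gatad2a-/- MEF and 129, 174, 172 and 102 FPKM on days 2, 4, 6 and 8, against 2163 FPKM in WT-2 MEF and 0, 0, 0 and 0 FPKM on those days of WT-2. Its difference was 10.39 ± 0.47 (SE, limma adjusted p = 0.00948). The other was an entry listed as Uck2 under an identifier that the annotation used here does not hold, with 821 FPKM in Gatad2a-/- MEF and 1873, 1661, 3557 and 1355 FPKM on days 2, 4, 6 and 8, against 613 FPKM in WT-2 MEF and 0, 0, 0 and 0 FPKM on those days of WT-2. Its difference was 10.52 ± 0.58 (adjusted p = 0.0167). Both were listed at 0 on all 4 induced days of WT-2, so no fold is given for those days. A second limma test, listed as an alternative and used here after the first was seen to call 2 genes, asked whether the 4 daily differences stood apart from 0. It takes the pair of MEF libraries as free of error. A difference in a MEF library alone can therefore put a gene past it on all 4 days, and its calls say only that the days agreed given these MEF libraries. This day-paired test called 4047 genes higher (21.3%) and 3172 lower (16.7%), the background for every list count below. The larger side depended on the processing, with 3388 higher and 3708 lower under quantile normalization and 3603 higher and 3765 lower with no filter. Single days weighed on these counts: without day 6 it called 1513 higher and 1532 lower, without day 4 1824 and 1766, and without day 8 2100.0 and 2079. The 10-library fit called 249 genes without day 2 and 0 without day 4. In the text, higher and lower refer to this test, the SE beside a difference comes from the 10-library fit, and both adjusted p-values are given for the genes the results turn on. Genes were named by the day-paired test with rules chosen after the values were seen.

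Pluripotency genes had larger changes in Gatad2a-/- than in WT-2. Of the pluripotency list, 21 of 30 were higher and 0 lower, against 21.3% and 16.7% of all genes. All 30 had a mean difference above 0, with a median of 3.38, against 0.26 over all genes. The list includes the induced factors Sox2 and Pou5f1. Members such as Prdm14, Lin28a and Sall4 had a mean change of 0 in WT-2 and passed the filter through Gatad2a-/- alone. Their sign was in part built in by the filter, so the count above 0 is a description. The same holds for members of lists below that were listed at 0 in WT-2, such as Cldn6. L1td1, an RNA-binding protein gene of pluripotent cells, had the largest mean difference of the named protein-coding genes, 6.63 ± 0.75 (adjusted p = 0.21 in the 10-library fit and 0.00207 in the day-paired test). It had 0.799 FPKM in Gatad2a-/- MEF and 101, 358, 201 and 152 FPKM on days 2, 4, 6 and 8, against 0 FPKM in WT-2 MEF and 0, 0, 0 and 0.109 FPKM on those days of WT-2. The homeobox factor Nanog had 2.26 FPKM in Gatad2a-/- MEF and 8.51, 99.1, 181 and 265 FPKM on days 2, 4, 6 and 8, against 0.255 FPKM in WT-2 MEF and 0.432, 0.266, 0.599 and 0.834 FPKM on those days of WT-2. L1td1 and Nanog were higher in Gatad2a-/- on each induced day. How many of all genes were apart in this way was not counted, here or for single genes below. The test of level on days 2 to 8, without subtracting MEF, called 40.8% of all genes higher and 25.7% lower. The difference of Nanog was 4.39 ± 1.70 (adjusted p = 0.34 and 0.00999).

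Other members followed at different days. Tdh, the threonine dehydrogenase gene used by mouse embryonic stem cells, had 4.80, 59.6, 49.9 and 112 FPKM on days 2, 4, 6 and 8 of Gatad2a-/-, against 0, 0, 0.254 and 0.701 FPKM on those of WT-2, a difference of 4.93 ± 1.40. The Nodal co-receptor gene Tdgf1 had 0.0638, 64.4, 262 and 638 FPKM against 0.0898, 0, 0 and 0.347 FPKM, with a difference of 5.69 ± 3.25. Sall4, a zinc finger factor, had 3.44, 62.2, 107 and 124 FPKM in Gatad2a-/- and was listed at 0 on all 4 days of WT-2. Tdgf1 was near 0 on day 2 in both systems, and both genes were above 60 FPKM on day 4 of Gatad2a-/-. The orphan nuclear receptor gene Esrrb had 0.0380, 14.6, 79.0 and 109 FPKM against 0.0400, 0, 0.0269 and 0.188 FPKM. Dppa5a, which encodes a KH domain protein of pluripotent cells, had 0.237, 3.97, 486 and 1019 FPKM against 0, 0, 0 and 0.353 FPKM and did not pass the day-paired test (difference 5.17 ± 3.76, adjusted p = 0.0559). Both were at or under 0.24 FPKM on day 2 of Gatad2a-/- and were high there on days 6 and 8. The median difference of the pluripotency list was 0.29, 2.76, 5.16 and 5.56 on days 2, 4, 6 and 8, against 0.11, 0.21, 0.13 and 0.38 over all genes.

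**Figure D1:**
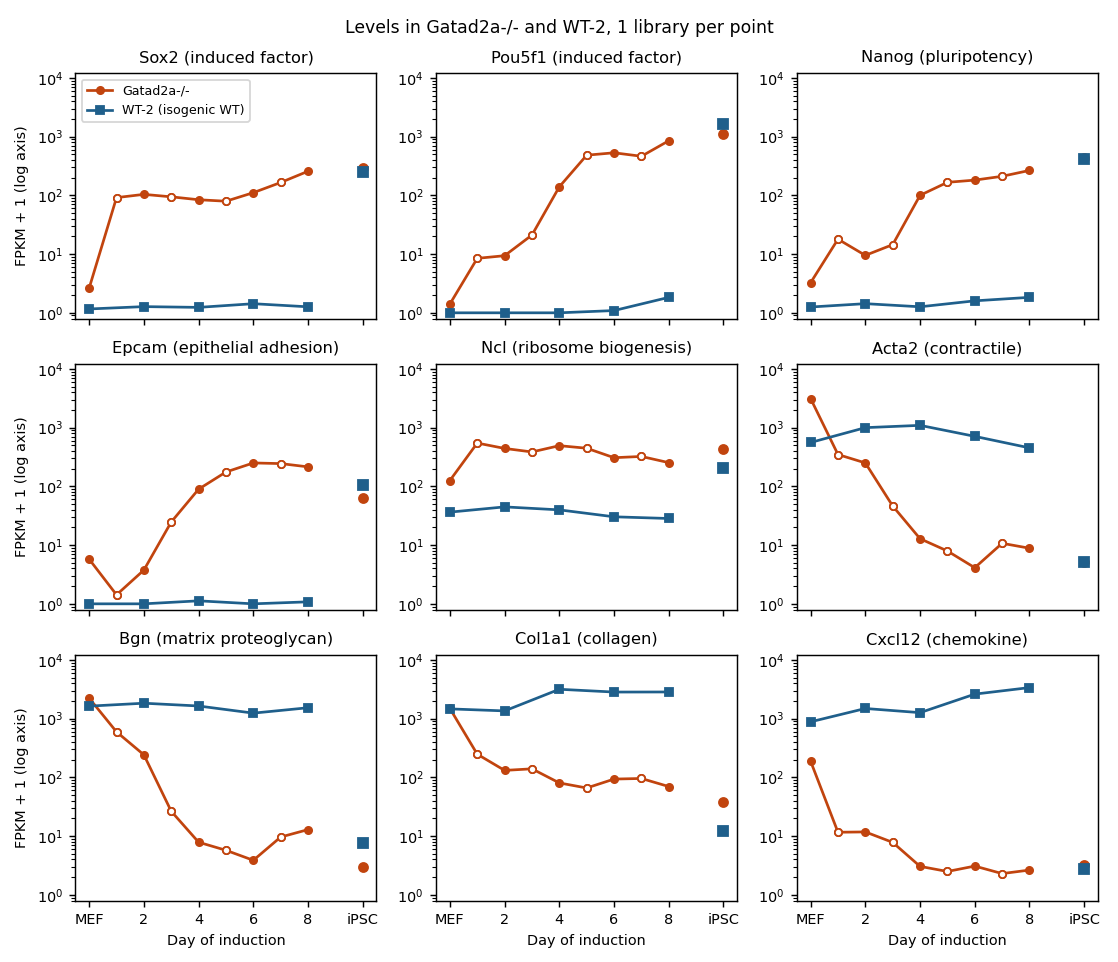
FPKM + 1 on a log axis against day of induction for 9 genes, with Gatad2a-/- in orange circles and WT-2 in blue squares, 1 library per point, open circles for Gatad2a-/- days that WT-2 lacks, and iPSC set apart at the right. Sox2, Pou5f1, Nanog and Epcam climb in Gatad2a-/- and stay near the floor in WT-2, while Acta2, Bgn, Col1a1 and Cxcl12 drop in Gatad2a-/- and stay high in WT-2.

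The sequences just before the annotated start are shown for 3 genes with large opposite differences, 1 pluripotency factor and 2 fibroblast products. They come from RefSeq promoter windows of build GRCm38.p6, read 5′ to 3′ on the strand of the gene and cover the 250 bases before the start. The window of Pou5f1 is 1 of 2 that the table holds for this gene. The bases just after the start were found in an annotated transcript of the gene for Pou5f1, and not for Acta2 or Bgn. Capitals mark matches, on either strand, to GGGCGG (GC box), CTTTGT (Sox core), ATGCNAAT (octamer) or the CArG box, a serum response element of contractile genes.
Pou5f1 (chr17:35505782-35506031, plus strand): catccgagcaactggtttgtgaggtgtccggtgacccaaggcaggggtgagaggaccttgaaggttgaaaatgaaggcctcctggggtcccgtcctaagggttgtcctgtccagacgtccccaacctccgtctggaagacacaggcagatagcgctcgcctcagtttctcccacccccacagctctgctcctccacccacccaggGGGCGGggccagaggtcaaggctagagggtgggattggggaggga
Acta2 (chr19:34255374-34255623, minus strand): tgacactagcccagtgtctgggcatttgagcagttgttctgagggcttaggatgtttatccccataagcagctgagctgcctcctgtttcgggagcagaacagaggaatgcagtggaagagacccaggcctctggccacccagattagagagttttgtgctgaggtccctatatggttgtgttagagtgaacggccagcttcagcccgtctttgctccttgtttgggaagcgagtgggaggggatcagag
Bgn (chrX:73483351-73483600, plus strand): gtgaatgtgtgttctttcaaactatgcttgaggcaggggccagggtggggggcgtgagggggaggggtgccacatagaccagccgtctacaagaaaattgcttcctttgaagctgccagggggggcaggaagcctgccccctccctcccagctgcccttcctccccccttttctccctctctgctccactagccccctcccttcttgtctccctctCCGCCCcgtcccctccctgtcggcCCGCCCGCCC
The window of Pou5f1 held 1 GC box, that of Bgn 3, which overlap in part, and that of Acta2 no exact match to the 4 motifs. The search allowed no mismatch. The Acta2 window holds ccctatatgg and ccttgtttgg, which each depart from the exact CArG box at 1 base, so it is not free of CArG-like sequence. Of 32851 promoter windows in the table, 32.7% held a GC box, 16.5% the Sox core, 2.86% the octamer and 1.47% an exact CArG box. The CArG box was found for 2 of 12 contractile genes and the octamer for 2 of 18 pluripotency genes. A gene counted if any of its windows matched, so these shares of genes are not in the same unit as the shares of windows. These are letter matches in short windows and not binding sites.

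Epithelial genes changed more in Gatad2a-/- from day 4 on. Of the epithelial junction list, 11 of 22 were higher and 1 lower, with a median of 2.08. E-cadherin (Cdh1), the main adhesion protein of epithelia, had 1.65 FPKM in Gatad2a-/- MEF and 3.57, 58.9, 98.5 and 114 FPKM on days 2, 4, 6 and 8, against 0.0347 FPKM in WT-2 MEF and 0.0550, 0.0906, 0.0717 and 0 FPKM on those days of WT-2. Its difference was 3.96 ± 1.805 (adjusted p = 0.393 in the 10-library fit and 0.0155 in the day-paired test). The adhesion molecule gene Epcam had 2.76, 88.6, 249 and 214 FPKM on days 2 to 8 of Gatad2a-/-, against 0, 0.125, 0 and 0.0813 FPKM on those of WT-2. Both were low on day 2 in the 2 systems and apart from day 4. The tight junction gene Cldn6 had 0, 16.8, 64.0 and 69.7 FPKM in Gatad2a-/- and was listed at 0 on all 4 days of WT-2. St14, a membrane serine protease gene, was apart earlier, with 20.5, 45.2, 73.0 and 88.9 FPKM against 0.253, 0.351, 0.774 and 0.441 FPKM and a difference of 3.80 ± 0.76. The member that was lower, P-cadherin (Cdh3), had 22.4 FPKM in Gatad2a-/- MEF and 5.62, 1.22, 2.94 and 4.21 FPKM on days 2, 4, 6 and 8, against 3.48 FPKM in WT-2 MEF and 6.62, 4.33, 5.57 and 4.01 FPKM on those days of WT-2, a difference of -2.92 ± 0.65. The median difference of the list was -0.21, 2.11, 3.28 and 2.89 on days 2, 4, 6 and 8.

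Genes of the extracellular matrix were lower throughout their list in Gatad2a-/-. Of the collagen and matrix list, 0 of 30 were higher and 30 lower, with a median of -4.73. In level on days 2 to 8, without subtracting MEF, 29 of the 30 were lower in Gatad2a-/-. The level test called 7737 of all genes higher (40.8%) and 4879 lower (25.7%), and it sets levels of separately normalized tables side by side. Collagen Col1a1 had 1489 FPKM in Gatad2a-/- MEF and 131, 79.5, 92.6 and 68.9 FPKM on days 2, 4, 6 and 8, against 1466 FPKM in WT-2 MEF and 1354, 3163, 2837 and 2846 FPKM on those days of WT-2. Its difference was -4.76 ± 0.81 (adjusted p = 0.211 in the 10-library fit and 0.00243 in the day-paired test). The proteoglycan biglycan, Bgn, had 2233 FPKM in Gatad2a-/- MEF and 241, 6.87, 2.87 and 11.9 FPKM on days 2, 4, 6 and 8, against 1633 FPKM in WT-2 MEF and 1831, 1642, 1241 and 1533 FPKM on those days of WT-2, with a difference of -6.91 ± 1.97. Matrix Gla protein, Mgp, an inhibitor of calcification, had 471 FPKM in Gatad2a-/- MEF and 92.4, 1.66, 0.915 and 3.57 FPKM on days 2, 4, 6 and 8, against 2039 FPKM in WT-2 MEF and 3052, 3216, 7389 and 5682 FPKM on those days of WT-2, with a difference of -7.25 ± 2.42. All 3 stayed at or above 1241 FPKM on the days of WT-2, while every induced day of Gatad2a-/- was below its own MEF. In such bulk samples fewer cells of a type and less RNA per cell cannot be told apart. Further members with large differences were periostin Postn (-6.71 ± 1.40), the collagen crosslinking enzyme genes Lox (-5.89 ± 0.94) and Loxl1 (-5.31 ± 0.90), and Col12a1 (-5.48 ± 0.67). Outside the list, Serpinf1, which encodes the secreted factor PEDF, differed by -6.58 ± 1.52, the microfibril-associated Mfap4 by -6.13 ± 0.89, Igfbp7, an insulin-like growth factor binding protein gene, by -6.76 ± 1.40, and the growth factor gene Ptn by -6.17 ± 0.99.

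Further genes with large negative differences were Tnmd, Ibsp and Lrrc17. Tenomodulin, Tnmd, a tendon membrane protein, had 69.8 FPKM in Gatad2a-/- MEF and 1.69, 0.0737, 0 and 0.178 FPKM on days 2, 4, 6 and 8, against 23.8 FPKM in WT-2 MEF and 30.4, 57.7, 48.3 and 55.9 FPKM on those days of WT-2. Bone sialoprotein, Ibsp, had 154 FPKM in Gatad2a-/- MEF and 0.276, 0.0696, 0 and 0.0225 FPKM on days 2, 4, 6 and 8, against 25.9 FPKM in WT-2 MEF and 18.2, 16.1, 17.1 and 11.9 FPKM on those days of WT-2. Ibsp was near 0 on every induced day of Gatad2a-/- and at 11.9 FPKM or more in every WT-2 library. Its difference of -6.47 ± 0.47 had the smallest unadjusted p of the named protein-coding genes in the 10-library fit, with an adjusted p of 0.053 that missed the threshold of 0.05. Lrrc17, a secreted leucine-rich repeat protein gene, differed by -6.21 ± 1.23.

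Most contractile genes started higher in Gatad2a-/- MEF and ended lower. Of the contractile list, 0 of 14 were higher and 14 lower, with a median of -4.45 and a median MEF difference of 1.30. Over all genes the median MEF difference was 0.21 with an SD of 1.77, so a start of that size was not unusual. Mylk started slightly lower, with a MEF difference of -0.20. Smooth muscle actin Acta2 had 3123 FPKM in Gatad2a-/- MEF and 249.7, 11.8, 3.12 and 7.84 FPKM on days 2, 4, 6 and 8, against 558 FPKM in WT-2 MEF and 999, 1093, 709.5 and 451 FPKM on those days of WT-2. Its difference was -7.86 ± 1.92 (adjusted p = 0.227 in the 10-library fit and 0.00356 in the day-paired test), the largest negative one of the named genes. Tagln, which encodes the actin-binding protein transgelin, had 886 FPKM in Gatad2a-/- MEF and 73.8, 10.4, 3.70 and 6.65 FPKM on days 2, 4, 6 and 8, against 306 FPKM in WT-2 MEF and 511, 331, 305 and 234 FPKM on those days of WT-2. The enteric actin gene Actg2 had 875 FPKM in Gatad2a-/- MEF and 169, 31.6, 1.19 and 2.95 FPKM on days 2, 4, 6 and 8, against 76.5 FPKM in WT-2 MEF and 128, 103, 58.3 and 53.04 FPKM on those days of WT-2. On day 2 Actg2 was still above WT-2, and from day 4 on it was below. Calponin Cnn1 had one of the smaller errors, -5.07 ± 0.50 (adjusted p = 0.17 and 0.0015). For the intermediate filament gene Des the difference of -4.40 ± 0.90 came with a level difference of 0.00 on days 2 to 8, and its Gatad2a-/- MEF library had 101 FPKM and its WT-2 MEF library 3.80 FPKM. In level, of the contractile list 0 of 14 were higher and 12 lower.

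**Figure D2:**
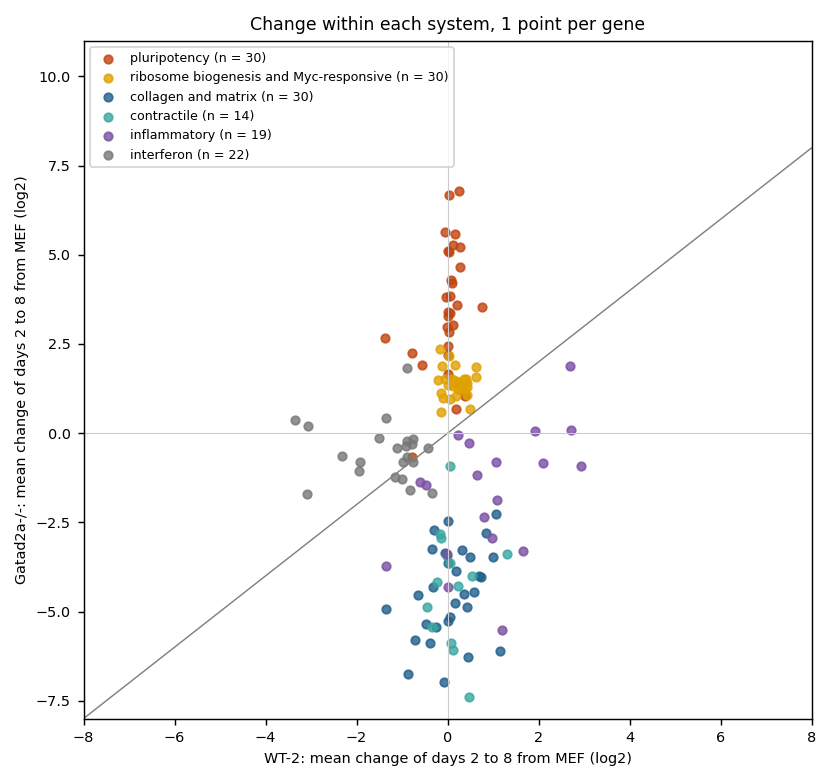
Mean change of days 2 to 8 from MEF on the log2(FPKM + 1) scale, Gatad2a-/- on the vertical axis and WT-2 on the horizontal axis, 1 point per gene of 6 lists, with the line of equal change. Pluripotency genes lie high and matrix and contractile genes low at WT-2 changes near 0, while interferon genes spread to the left and inflammatory genes to the right along the WT-2 axis.

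Transcription factors of mesenchymal cells were mostly lower. Of the list, 0 of 13 were higher and 11 lower, with a median of -2.63. Twist2, a basic helix-loop-helix repressor, had 12.1 FPKM in Gatad2a-/- MEF and 2.87, 0.790, 0.548 and 0.728 FPKM on days 2, 4, 6 and 8, against 5.63 FPKM in WT-2 MEF and 9.93, 8.91, 49.6 and 137 FPKM on those days of WT-2, and its difference was -4.81 ± 1.84. The homeobox gene Prrx2 had 2.72, 0, 0 and 0.445 FPKM on the induced days of Gatad2a-/-, against 157, 117, 135 and 131 FPKM on those of WT-2. Twist2 thus climbed in WT-2, whereas Prrx2 held its level there. Snai2, the zinc finger repressor of epithelial genes, had 4.00, 1.11, 0.681 and 0.733 FPKM against 93.4, 20.5, 22.3 and 20.8 FPKM and a difference of -2.73 ± 0.50. Genes of TGF-beta signalling and of matricellular proteins were mostly lower in Gatad2a-/- too. Of that list, 0 of 14 were higher and 12 lower, with a median of -3.35. Thbs2, a thrombospondin, had 10.2, 2.68, 2.29 and 1.88 FPKM against 63.4, 199.9, 256 and 281 FPKM and a difference of -6.07 ± 1.54. The ligand gene Tgfb3 had 17.0, 0.289, 0.174 and 0.281 FPKM against 52.0, 50.4, 55.6 and 48.9 FPKM, a difference of -4.64 ± 1.59. The activin subunit gene Inhba differed by -4.96 ± 0.99, and tenascin Tnc, a matricellular glycoprotein, by -4.25 ± 0.39.

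Growth genes were higher in Gatad2a-/-. Of the list of ribosome biogenesis and Myc-responsive genes, 24 of 30 were higher and 0 lower, with a median of 1.15 that was reached early (0.99, 1.58, 1.25 and 0.87 on days 2, 4, 6 and 8). Nucleolin, Ncl, a major nucleolar protein, had 125 FPKM in Gatad2a-/- MEF and 442, 492, 307 and 253 FPKM on days 2, 4, 6 and 8, against 35.4 FPKM in WT-2 MEF and 43.7, 38.8, 29.3 and 27.4 FPKM on those days of WT-2. Its difference was 1.57 ± 0.37 (adjusted p = 0.222 in the 10-library fit and 0.00319 in the day-paired test). Every Gatad2a-/- library was above every WT-2 library at Ncl, MEF included, where 40.8% of all genes were called higher in level on days 2 to 8. Lyar, a nucleolar protein gene, differed by 2.51 ± 0.60, the RNA polymerase I subunit gene Polr1b by 2.15 ± 0.53 and dyskerin, Dkc1, by 2.00 ± 0.46. The median MEF difference of the list was 1.14, against 0.21 over all genes with an SD of 1.77. Ribosomal protein genes, tested as a list of their own, had a median difference of 0.27, close to that of all genes, and 2 of 29 were higher and 0 lower. Their median MEF difference was 1.96.

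Of the DNA replication list, 12 of 22 were higher and 0 lower, with a median of 1.15. Mybl2, a cell cycle transcription factor, had 5.67 FPKM in Gatad2a-/- MEF and 52.0, 93.2, 291 and 376 FPKM on days 2, 4, 6 and 8, against 0.324 FPKM in WT-2 MEF and 1.67, 2.89, 1.22 and 1.17 FPKM on those days of WT-2, with a difference of 3.51 ± 1.36. Mcm10, a replication initiation factor gene, had 40.8, 49.5, 75.6 and 62.5 FPKM against 1.93, 4.61, 1.73 and 1.26 FPKM and a difference of 1.87 ± 0.76. WT-2 peaked on day 4 at Mybl2 and Mcm10, below every induced day of Gatad2a-/-. Of the mitosis list, 4 of 20 were higher and 0 lower, a share near the 21.3% of all genes. All 20 were higher in level, with a median MEF difference of 2.52, against 0.21 over all genes. Cyclin B1, Ccnb1, had 46.3 FPKM in Gatad2a-/- MEF and 151, 293, 344 and 205 FPKM on days 2, 4, 6 and 8, against 1.55 FPKM in WT-2 MEF and 2.72, 7.50, 2.75 and 1.34 FPKM on those days of WT-2, and its difference was 1.65 ± 0.69. Among inhibitors of cyclin-dependent kinases and p53 targets, 0 of 15 were higher and 5 lower. Cdkn2b, the p15 gene, had 47.2 FPKM in Gatad2a-/- MEF and 4.57, 1.36, 1.10 and 1.90 FPKM on days 2, 4, 6 and 8, against 28.1 FPKM in WT-2 MEF and 42.8, 97.6, 117 and 96.8 FPKM on those days of WT-2, a difference of -5.54 ± 1.07. Cdkn2a, which encodes p16 and p19ARF, had 47.5 FPKM in Gatad2a-/- MEF and 39.8, 46.3, 33.7 and 20.7 FPKM on days 2, 4, 6 and 8, against 41.5 FPKM in WT-2 MEF and 65.8, 115, 206 and 207 FPKM on those days of WT-2, with a difference of -2.15 ± 0.99. Both inhibitors were above their MEF level on every induced day of WT-2, while in Gatad2a-/- Cdkn2b dropped and Cdkn2a stayed within 20.7 to 47.5 FPKM. Cdkn1a, the p21 gene, had a difference of -0.75 ± 1.16 and did not pass the day-paired test (adjusted p = 0.275).

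**Figure D3:**
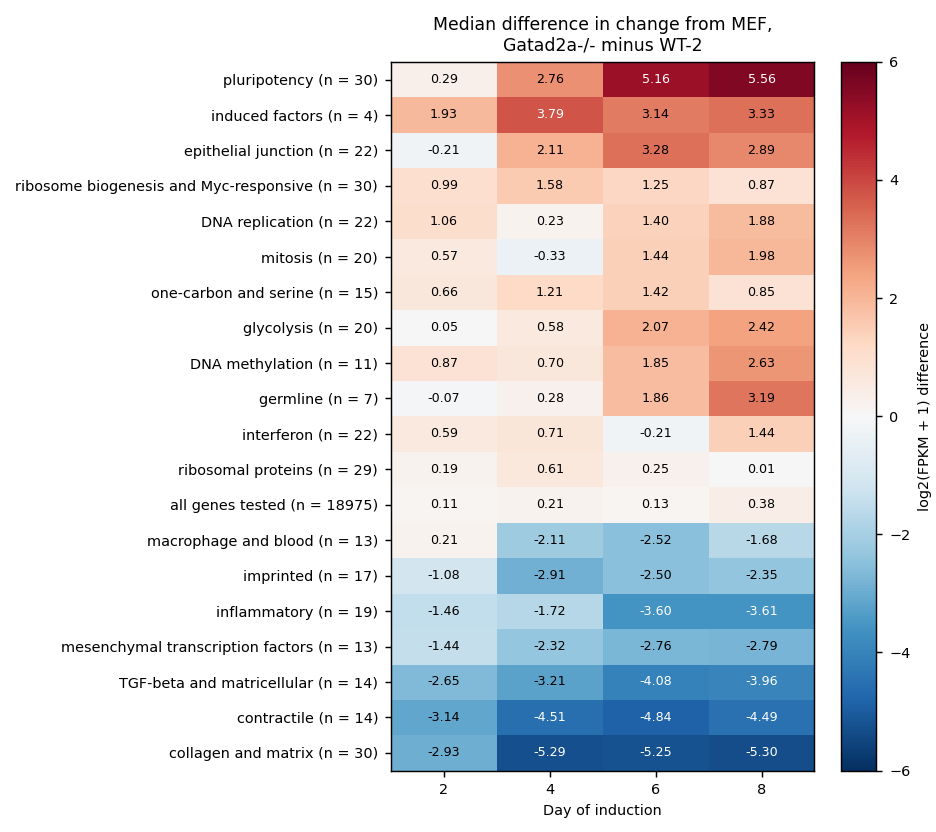
Median difference in change from MEF, Gatad2a-/- minus WT-2, on the log2(FPKM + 1) scale for 19 gene lists and all genes tested on days 2, 4, 6 and 8, with the number of genes tested in each. Pluripotency genes reach 5.56 on day 8 and the collagen and matrix list -5.30, while all genes tested lie between 0.11 and 0.38.

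Metabolic genes split by pathway. Of the glycolysis list, 7 of 20 were higher and 0 lower, with a median of 1.26 that was 0.05, 0.58, 2.07 and 2.42 on days 2, 4, 6 and 8. The neuronal-type glucose transporter gene Slc2a3 had 8.11 FPKM in Gatad2a-/- MEF and 12.9, 122, 177 and 427 FPKM on days 2, 4, 6 and 8, against 8.24 FPKM in WT-2 MEF and 4.89, 5.61, 0.861 and 1.29 FPKM on those days of WT-2, with a difference of 4.91 ± 2.28 (adjusted p = 0.399 in the 10-library fit and 0.0163 in the day-paired test). Pdk1, a kinase that inhibits pyruvate dehydrogenase, had 29.3 FPKM in Gatad2a-/- MEF and 66.5, 59.3, 64.9 and 68.8 FPKM on days 2, 4, 6 and 8, against 42.3 FPKM in WT-2 MEF and 41.3, 53.7, 3.12 and 2.37 FPKM on those days of WT-2, with a difference of 2.81 ± 1.79. The difference at Pdk1 on days 6 and 8 thus came with a drop in WT-2 and with a rise from MEF in Gatad2a-/- that was present from day 2 on. Its mean change from MEF was 1.12 in Gatad2a-/- and -1.69 in WT-2. The median change from MEF of the glycolysis list was 0.18 in Gatad2a-/- and -1.08 in WT-2. Of the one-carbon and serine list, 7 of 15 were higher and 2 lower. Gldc, the glycine decarboxylase gene, had 2.42, 13.8, 34.5 and 24.0 FPKM against 0.0655, 0, 0.0909 and 0.0422 FPKM, a difference of 3.55 ± 1.28. The folate enzyme gene Mthfd1 differed by 2.23 ± 0.43, while the changes of the serine synthesis genes Phgdh (-1.37 ± 0.61) and Psat1 (-0.83 ± 0.35) were lower. Phgdh had 108 FPKM in Gatad2a-/- MEF and 155, 128, 81.2 and 52.9 FPKM on days 2, 4, 6 and 8, against 3.43 FPKM in WT-2 MEF and 11.8, 7.46, 9.90 and 8.15 FPKM on those days of WT-2, and Psat1 had 127 FPKM in Gatad2a-/- MEF and 202, 202, 125 and 118 FPKM on days 2, 4, 6 and 8, against 10.53 FPKM in WT-2 MEF and 29.5, 32.4, 20.7 and 17.3 FPKM on those days of WT-2. Their levels on days 2 to 8 were higher in Gatad2a-/-, by 3.25 and 2.64 on the log2 scale. In level, of the one-carbon and serine list 14 of 15 were higher and 0 lower. Of the oxidative phosphorylation list, 5 of 25 were higher and 1 lower, at or under the background share, with a median of 0.24.

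Chromatin regulators were mixed. Of the NuRD subunits, 4 of 13 were higher and 1 lower, with a median of 0.26. Mbd3 had 64.5 FPKM in Gatad2a-/- MEF and 65.6, 77.6, 62.7 and 67.4 FPKM on days 2, 4, 6 and 8, against 52.98 FPKM in WT-2 MEF and 68.2, 74.0, 75.7 and 76.6 FPKM on those days of WT-2, and its difference was -0.39 ± 0.36. Gatad2b, the paralog of Gatad2a, had 23.4 FPKM in Gatad2a-/- MEF and 37.5, 27.4, 35.1 and 34.5 FPKM on days 2, 4, 6 and 8, against 8.35 FPKM in WT-2 MEF and 7.28, 4.93, 3.40 and 2.37 FPKM on those days of WT-2, and its difference was 1.34 ± 0.61 (adjusted p = 0.389 in the 10-library fit and 0.0146 in the day-paired test). Gatad2b was above WT-2 in every Gatad2a-/- library, MEF included, where 40.8% of all genes were called higher in level on days 2 to 8. The deacetylase gene Hdac1 differed by 1.16 ± 0.49 and Mta3 by 1.35 ± 0.91. The remodeller gene Chd3 was lower, with 115 FPKM in Gatad2a-/- MEF and 126, 51.8, 25.8 and 19.8 FPKM on days 2, 4, 6 and 8, against 48.1 FPKM in WT-2 MEF and 56.7, 65.8, 85.3 and 110.3 FPKM on those days of WT-2 and a difference of -2.07 ± 1.30. Among genes of DNA methylation, 6 of 11 were higher and 1 lower. The dioxygenase gene Tet2, which oxidises 5-methylcytosine, had 4.30 FPKM in Gatad2a-/- MEF and 24.8, 42.1, 56.4 and 62.1 FPKM on days 2, 4, 6 and 8, against 2.73 FPKM in WT-2 MEF and 2.24, 2.12, 0.937 and 1.17 FPKM on those days of WT-2, with a difference of 3.63 ± 0.84, and Tet1 differed by 2.81 ± 1.68. The maintenance methyltransferase gene Dnmt1 had 87.1, 76.9, 97.8 and 91.8 FPKM on the induced days of Gatad2a-/- against 11.3, 17.8, 8.21 and 6.38 FPKM on those of WT-2, a difference of 1.97 ± 0.67. Of the Polycomb list, 7 of 15 were higher and 1 lower. The chromobox gene Cbx7 (4.36 ± 1.66), the cofactor Jarid2 (3.35 ± 1.49) and the methyltransferase Ezh2 (2.02 ± 0.67) were higher, and Cbx6 (-1.18 ± 0.62) was lower.

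Imprinted genes were mostly lower in Gatad2a-/-. Of the list, 1 of 17 were higher and 13 lower, with a median of -2.29. The growth factor gene Igf2 had 1192 FPKM in Gatad2a-/- MEF and 139, 15.6, 9.79 and 33.2 FPKM on days 2, 4, 6 and 8, against 1663 FPKM in WT-2 MEF and 1391, 1375, 2278 and 3443 FPKM on those days of WT-2, with a difference of -5.54 ± 1.55 (adjusted p = 0.252 in the 10-library fit and 0.00459 in the day-paired test). The noncoding RNA gene H19 next to it had 2552 FPKM in Gatad2a-/- MEF and 465, 29.8, 61.7 and 328 FPKM on days 2, 4, 6 and 8, against 191 FPKM in WT-2 MEF and 121, 312, 397 and 369 FPKM on those days of WT-2. At H19 the WT-2 MEF library was the lower start, and day 8 of Gatad2a-/- was again within the range of WT-2. Cdkn1c, a growth inhibitor, had 4.40, 5.52, 3.49 and 22.2 FPKM against 30.8, 61.1, 109 and 108 FPKM, a difference of -3.81 ± 0.91. Meg3, a maternally expressed noncoding RNA gene, had 26.3, 1.35, 1.15 and 2.49 FPKM against 51.1, 63.5, 69.9 and 83.9 FPKM, a difference of -3.01 ± 1.60.

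The inflammatory list was lower in Gatad2a-/-, with a median change from MEF of -1.37 in Gatad2a-/- and 0.97 in WT-2. Of its members, 0 of 19 were higher and 14 lower. The chemokine gene Cxcl12 had 187 FPKM in Gatad2a-/- MEF and 10.8, 2.05, 2.09 and 1.64 FPKM on days 2, 4, 6 and 8, against 882 FPKM in WT-2 MEF and 1489, 1264, 2616 and 3379 FPKM on those days of WT-2, and its difference was -6.70 ± 1.22 (adjusted p = 0.213 in the 10-library fit and 0.00268 in the day-paired test). The neutrophil chemokine gene Cxcl1 had 3.11 FPKM in Gatad2a-/- MEF and 2.84, 0.770, 0.909 and 0.691 FPKM on days 2, 4, 6 and 8, against 28.0 FPKM in WT-2 MEF and 86.3, 241, 277 and 394 FPKM on those days of WT-2, with a difference of -3.84 ± 1.24. Ccl2, a monocyte chemokine gene, had 22.7 FPKM in Gatad2a-/- MEF and 3.70, 1.795, 0.368 and 0.898 FPKM on days 2, 4, 6 and 8, against 125 FPKM in WT-2 MEF and 403, 335, 376 and 472 FPKM on those days of WT-2, with a difference of -4.94 ± 0.74. All 3 were above their own MEF library on every induced day of WT-2 and under 11 FPKM on every induced day of Gatad2a-/-. The summed FPKM of the list was 425 FPKM in Gatad2a-/- MEF and 46.5 to 103 FPKM on its 4 days, against 2728 FPKM in WT-2 MEF and 4243 to 24846 FPKM on its 4 days. Of the macrophage and blood list, 1 of 13 were higher and 7 lower by the difference in change. Its median was -1.71, and 4 of 13 were above 0, such as Laptm5 (1.69). In level all 13 were lower in Gatad2a-/-. Their summed FPKM was 341 FPKM in Gatad2a-/- MEF and 61.0 to 386 FPKM on its 4 days, against 7784 FPKM in WT-2 MEF and 5032 to 9492 FPKM on its 4 days. Among them the lysozyme gene Lyz2 had 105 FPKM in Gatad2a-/- MEF and 165, 3.77, 2.06 and 0.365 FPKM on days 2, 4, 6 and 8, against 2466 FPKM in WT-2 MEF and 2828, 3242, 6935 and 4157 FPKM on those days of WT-2. The complement gene C1qa had 27.7 FPKM in Gatad2a-/- MEF and 10.7, 0.348, 0.0910 and 0 FPKM on days 2, 4, 6 and 8, against 1408 FPKM in WT-2 MEF and 855, 327, 409 and 259 FPKM on those days of WT-2. Both were far lower in every Gatad2a-/- library than in any WT-2 library. The part of macrophage RNA in the inflammatory difference was not tested.

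Interferon-response genes differed in MEF before induction. By the difference in change, of the list 6 of 22 were higher and 1 lower, but in level on days 2 to 8 all 22 were lower in Gatad2a-/-. Their summed FPKM was 80.2 FPKM in Gatad2a-/- MEF and 77.9 to 105 FPKM on its 4 days, against 3737 FPKM in WT-2 MEF and 1190.0 to 2776 FPKM on its 4 days, and their median MEF difference was -5.47. Mx1, an antiviral GTPase gene, had 0.213 FPKM in Gatad2a-/- MEF and 0.274, 0.357, 0.456 and 0.484 FPKM on days 2, 4, 6 and 8, against 44.6 FPKM in WT-2 MEF and 5.58, 4.87, 7.36 and 1.64 FPKM on those days of WT-2. Its difference in change was 3.27 ± 0.77, and its level difference was -1.96. Bst2, which encodes tetherin, had 13.9 FPKM in Gatad2a-/- MEF and 40.9, 68.2, 72.5 and 35.6 FPKM on days 2, 4, 6 and 8, against 889 FPKM in WT-2 MEF and 514, 308, 861 and 387 FPKM on those days of WT-2, with a difference of 2.71 ± 0.64 and a level difference of -3.18. The signs also parted at Ms4a4c, a membrane protein gene of the Ms4a family, with a difference of 5.42 ± 1.25 and a level difference of -2.22. It had 0.0477 FPKM in Gatad2a-/- MEF and 0.104, 0.0953, 0 and 0.254 FPKM on days 2, 4, 6 and 8, against 208 FPKM in WT-2 MEF and 20.9, 2.14, 2.96 and 1.66 FPKM on those days of WT-2. Gatad2a-/- was near 0 throughout at Mx1 and Ms4a4c, and WT-2 dropped after its MEF library.

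**Figure D4:**
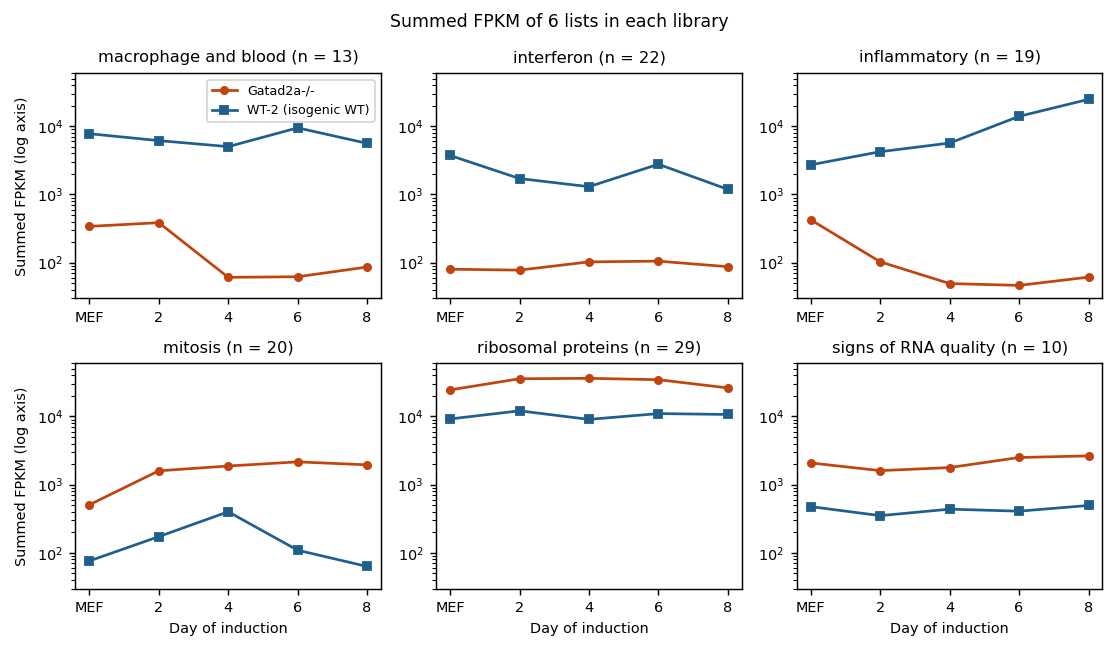
Summed FPKM on a log axis of 6 gene lists in each of the 10 libraries against stage, Gatad2a-/- in orange circles and WT-2 in blue squares. Macrophage, interferon and inflammatory lists lie higher in WT-2 at every stage, and mitosis, ribosomal protein and RNA quality lists lie higher in Gatad2a-/-, MEF included.

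Readouts of the culture signals differed in their direction. Of the immediate early and MEK readouts, 1 of 19 were higher and 7 lower. The immediate early gene Egr1 had 96.1 FPKM in Gatad2a-/- MEF and 21.6, 4.42, 0.862 and 0.539 FPKM on days 2, 4, 6 and 8, against 16.4 FPKM in WT-2 MEF and 27.3, 9.89, 33.2 and 13.9 FPKM on those days of WT-2, a difference of -4.68 ± 1.52, whereas the ETS factor gene Etv5 had 7.73 FPKM in Gatad2a-/- MEF and 32.1, 42.3, 52.3 and 72.8 FPKM on days 2, 4, 6 and 8, against 10.6 FPKM in WT-2 MEF and 10.3, 1.22, 2.57 and 3.48 FPKM on those days of WT-2, a difference of 3.86 ± 1.09. Egr1 dropped and Etv5 climbed in Gatad2a-/-. Of the LIF readouts, 2 of 9 were higher and 2 lower, among them the kinase gene Pim3 (2.48 ± 0.69) and the receptor gene Il6st (-1.52 ± 0.49). Of the WNT readouts, 1 of 9 were higher and 5 lower. The negative feedback genes Axin2 (-2.07 ± 0.58) and Nkd1 (-2.40 ± 0.64) were lower, and the factor Lef1 (1.42 ± 0.73) was higher. Axin2 had 0.142, 0.600, 0.636 and 0.7997 FPKM on the induced days of Gatad2a-/- and 1.42, 4.55, 5.47 and 5.78 FPKM on those of WT-2.

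Of the keratinocyte list 8 of 15 genes were tested, and 1 of 8 were higher and 1 lower, with a median of -0.45 and 2 of 8 above 0. The lower member was the keratin gene Krt15, with a difference of -3.94 and a MEF difference of 4.47. Krtdap, a keratinocyte differentiation gene, had 11.6, 217, 80.9 and 19.7 FPKM on days 2, 4, 6 and 8 of Gatad2a-/- and was listed at 0 in every WT-2 library, with a difference of 4.44 ± 1.57. Several of the largest positive differences had their peak in mid course. Ly6g6c, an Ly6 family membrane protein gene, had 0.666, 57.8, 478 and 53.8 FPKM in Gatad2a-/- and 0, 0, 0 and 0.195 FPKM in WT-2. Cyp4f39, a cytochrome P450 gene, had 16.6, 110.4, 36.7 and 11.99 FPKM against 0, 0.0546, 0 and 0 FPKM. Fetub, a protease inhibitor gene of the cystatin superfamily, had 95.5, 115, 98.5 and 26.5 FPKM against 0.340, 0.469, 0.0943 and 0.435 FPKM. In these 3 genes Gatad2a-/- iPSC were at 1.76, 3.02 and 8.58 FPKM, below the peaks of the course. The water and glycerol channel gene Aqp3 differed by 4.42 ± 0.89, the aldehyde dehydrogenase gene Aldh3a1 by 4.68 ± 1.19, the DNA sensor gene Aim2 by 4.76 ± 1.17, the microtubule regulator gene Stmn2 by 5.17 ± 1.02 and Hap1, which encodes huntingtin-associated protein, by 4.48 ± 1.07. Of the trophoblast and endoderm list 11 of 18 genes were tested, and 2 of 11 were higher and 6 lower, with a median of -1.17 and 3 above 0. Its member Tfap2c, a trophoblast factor gene also used in the naive pluripotent state and in germ cells, went against that median. Tfap2c had 3.52, 15.9, 66.1 and 53.9 FPKM against 0.0307, 0, 0 and 0.0850 FPKM, a difference of 4.22 ± 1.51. Of the primed epiblast and mesoderm list 5 of 12 genes reached the filter, and 2 of 5 were higher and 0 lower, with a median of 1.35. Members that reached it in Gatad2a-/- alone, such as Lefty2, have a sign that is in part built in. Lefty2 and Nodal of this list, a TGF-beta family inhibitor and ligand of the early embryo, differed by 2.96 ± 1.55 and 2.33 ± 1.17. Of 18 germline genes 7 were tested, and 1 of 7 were higher and 0 lower, the meiosis gene Tex19.1 with 0.0236, 6.51, 18.97 and 18.8 FPKM in Gatad2a-/- and 0, 0, 0 and 0.0967 FPKM in WT-2. Of 10 genes of the 2-cell-like list 1 was tested, and it did not pass.

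The time course of the difference was tested with a slope over days 2 to 8, which does not use the MEF libraries. limma called 0 genes (0%), while 3225 genes (17%) had an unadjusted p under 0.05. As a description, Sox2 had differences of 5.17, 4.91, 5.10 and 6.49 on days 2, 4, 6 and 8, and Ibsp had -6.44, -6.53, -6.70 and -6.19, so both were apart from day 2 on. Zfp42, a naive pluripotency zinc finger gene, had 0.19, 2.61, 4.69 and 5.82 on those days. Over all tested genes, 10862 (57.2%) had the same sign on all 4 days.

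Most of the called genes moved by at least 1 in Gatad2a-/- and by under 1 in WT-2. Of the 4047 genes called higher, 2265 (56%) had a mean change of at least 1 upward in Gatad2a-/- and under 1 in WT-2, and 294 (7.26%) had a change of at least 1 downward in WT-2 and under 1 in Gatad2a-/-. Of the 3172 called lower, 2022 (63.7%) moved down in Gatad2a-/- alone and 155 (4.89%) moved up in WT-2 alone by the same limit. Of the genes in neither call, 940 (8%) moved up and 445 (3.79%) down in Gatad2a-/- alone. In WT-2 alone 167 (1.42%) of them moved down and 125 (1.06%) up. The calls are made from these same changes, so the directions are in part built in. Both the day-paired and the level test called 5434 genes with the same sign, 3202 higher and 2232 lower. The 2 tests share the day libraries, and the level test alone called 40.8% of all genes higher and 25.7% lower.

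The genes were set against 2 other tables that share no library with these 10. In the end point of reprogramming, iPSC minus MEF of Mbd3f/- and of WT-1, 31.3% of the 3015 called genes at least 2-fold higher here moved up by at least 1 in both systems and 0.929% moved down in both, against 11.8% and 11.2% of all genes. Of the 2595 called genes at least 2-fold lower here, 50.9% moved down and 0.462% up in both. In the course of Mbd3f/- minus WT-1, computed in the same way over the same days, 81.2% of the higher genes also tested there were above 0, against 53.2% of all genes and 11.8% of the lower genes. The day-paired test of that pair called 39.2% of the higher genes higher, against 17.5% of all genes, and 66.1% of the lower genes lower, against 21.2%. Across 14622 genes the 2 sets of differences had a Pearson r of 0.620 and a Spearman rho of 0.572, given as a description since genes are not independent replicates.

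As a description, the 2 pairs had unlike values at some genes and lists, picked after the values were seen. At Sox2 the difference was 5.42 in Gatad2a-/- against WT-2 and 1.66 in Mbd3f/- against WT-1, and at Myc it was 1.22 and -4.70. For Slc2a3 the values were 4.91 and 0.45, and for Epcam 3.43 and -0.34. The ribosome biogenesis list had medians of 1.15 and 2.03, the collagen and matrix list -4.73 and -5.57, and the interferon list 0.64 and -1.54. A 20-library fit tested the difference between the pairs and called 3 of 19689 genes (0.0152%), while 1362 (6.92%) had an unadjusted p under 0.05. In all 3 the difference of Mbd3f/- against WT-1 was exactly 0, which can be a failed estimate. None of Sox2, Myc, Slc2a3 and Epcam was among the 3.

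**Figure D5:**
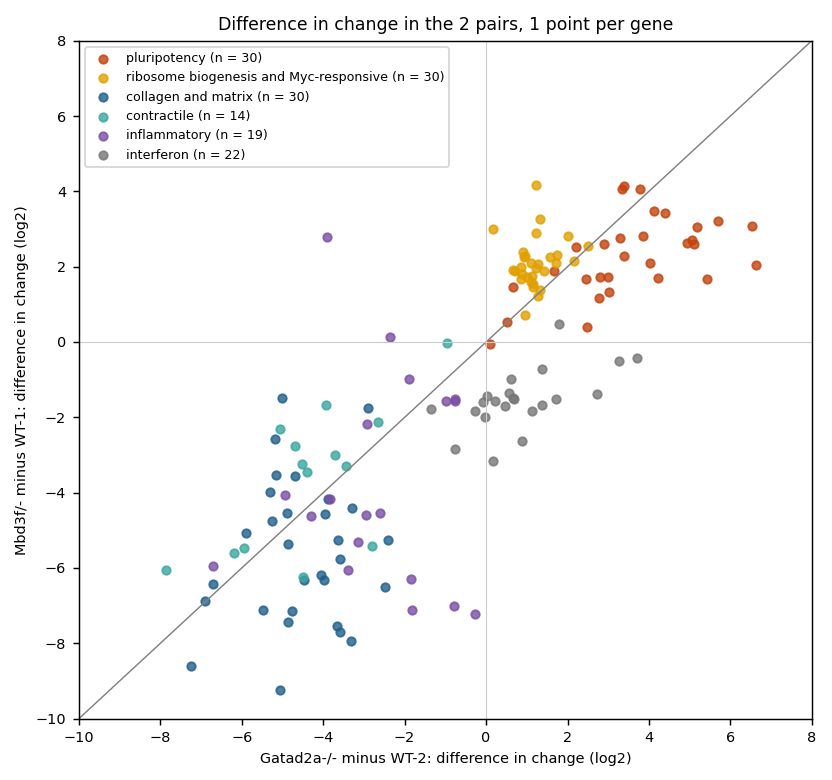
Mean difference in change over days 2 to 8 on the log2(FPKM + 1) scale for Gatad2a-/- minus WT-2 (horizontal) and Mbd3f/- minus WT-1 (vertical), 1 point per gene of 6 lists, with the line of equality. Pluripotency and ribosome biogenesis genes lie mostly at upper right, matrix, contractile and most inflammatory genes at lower left, and interferon genes mostly at lower right.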

How the data were processed

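PolyA RNA was sequenced from 1 library per stage and system, with a kit that does not mark strand, so overlapping and antisense genes are uncertain. Per the submitters' processing notes, the tools were CASAVA 1.8.2, TopHat2 2.0.10 and Cufflinks 2.2.1 with build mm10. The authors deposited FPKM per gene in a separate table for each system, normalized separately, and levels set across tables carry that limit. Sequencing depth is unknown, so no counting interval is given.

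Values were transformed to log2(FPKM + 1), with a pseudocount of 1, and 18975 of 38987 shared genes were tested, those that reached 1 FPKM in 2 or more of the 10 libraries. Gene symbols that had turned into dates (27) were restored by identifier, and the rows of repeated identifiers (22) were summed. limma 3.58.1 (R 4.3.3, trend and robust variance, Benjamini-Hochberg threshold 0.05) fitted stage, system and the interaction of system with induced day against MEF over the 10 libraries, with 3 residual degrees of freedom. The day-paired test and the level test were limma alternatives over the 4 days. The estimates of the 10-library fit were checked on simulated data, and those of the slope and of the difference between pairs on values without noise. The day-paired test was run on the simulated data with no check of its false calls. The level test was not simulated. P-values concern the spread between days of 1 course per system, which may be technical, and not biological replicates. The 4 days are successive samples of 1 course and not independent.

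The members and lists were chosen with earlier results of these data known. The planned naming rule used the 10-library fit. After that fit called 2 genes, naming by the day-paired test was chosen: the 15 protein-coding genes with the largest difference in each direction, past the threshold, with 1 sign on 4 days, a maximum FPKM of at least 5 and values above 0 in at least 6 libraries, plus up to 4 members of each list. Other members named with their values were picked after the values were seen. Annotation was GENCODE release M21, and 18606 tested genes matched. Alternatives changed the pseudocount, filter, scaling, gene set, test and days left out.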

Additional observations from a re-analysis of the deposited data

Results flagged for a closer look

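The limma test of the difference between the 2 pairs of systems over 20 libraries called 3 genes, and in all 3 the difference of Mbd3f/- minus WT-1 was exactly 0. The value between the pairs is therefore the value of Gatad2a-/- minus WT-2 itself, and since a listed 0 can be a failed estimate, it does not show that the pairs differed. For the entry listed as Uck2, Gatad2a-/- minus WT-2 exceeded Mbd3f/- minus WT-1 by 10.52 on the log2 scale (adjusted p = 0.00208). For Snord35b the excess was 10.39 (adjusted p = 0.000997), and for Snord107 it was 9.32 (adjusted p = 0.0135). Snord107, a small nucleolar RNA gene, had 0 FPKM in Gatad2a-/- MEF and 1057, 365, 472 and 914 FPKM on days 2, 4, 6 and 8, against 0 FPKM in WT-2 MEF and 0, 0, 0 and 0 FPKM on those days of WT-2. All 3 were listed at 0 on the 4 induced days of WT-2.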

How the results depend on the processing

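The number of genes called by the 10-library fit depended on the setting. It was 2, and it became 1 with a pseudocount of 5, 224 with no filter (24 higher and 200 lower), 0 without genes listed at 0, 1 with protein-coding genes alone, 4 with a term for the trend over days, 36 without pairing by day, 89 with the unused days and 59 in the 20-library fit. It was 7219 in the day-paired test, 12616 in the level test and 13146 in the level test with its spread modelled on the mean difference. Leaving out 1 day at a time gave 0 to 249 (249 without day 2 and 0 without day 4). The slope over days called 0 genes, 208 under a stricter filter (1 FPKM in at least 0.5 of the libraries) and 0 to 363 with 1 day left out (363 without day 8). The difference between the pairs called 3 genes, 30 with a pseudocount of 5, 540 with no filter, 0 under the stricter filter and 1 to 9 with 1 day left out. The day-paired test called 4047 higher and 3172 lower, and 1513 to 4012 higher and 1532 to 3172 lower with 1 day left out. The cause of these differences was not tested. Signs turned round in the level test for Mx1 (-1.96), Klf4 (0.82), Nes (3.04), Atp5g1 (0.54), Ndufs7 (-0.43), Ccng1 (0.87), Rsad2 (-1.93), Ms4a4c (-2.22), Des (0.0018), Bst2 (-3.18), Oas1a (-3.82), Krt15 (0.53), Cfd (-1.04), Phgdh (3.25) and Psat1 (2.64), and for Gatad2a with quantile scaling (-0.049). With 1 day left out, Klf4 lay between -0.380 and 0.295 and Gatad2a between -0.047 and 0.261.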

Other observations

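Libraries of Gatad2a-/- on days 1, 3, 5 and 7 have no WT-2 partner and entered the comparison only as an alternative setting. Sox2 had 90.5, 93.4, 78.4 and 165 FPKM on these days, Pou5f1 7.46, 20.1, 482 and 462 FPKM, Nanog 16.9, 13.5, 166 and 210.0 FPKM and Epcam 0.424, 23.7, 175 and 243 FPKM. Acta2 had 348, 45.3, 6.94 and 9.73 FPKM and Col1a1 247, 139, 65.0 and 94.8 FPKM on the same days. In established iPSC, Nanog had 439 FPKM in Gatad2a-/- and 408 FPKM in WT-2, and Gatad2a had 13.4 FPKM in Gatad2a-/- and 38.5 FPKM in WT-2.

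The Y-linked gene Ddx3y, which encodes an RNA helicase, had 29.8 FPKM in Gatad2a-/- MEF and 21.3, 25.1, 24.6 and 34.8 FPKM on days 2, 4, 6 and 8, against 4.22 FPKM in WT-2 MEF and 2.81, 2.21, 1.93 and 1.45 FPKM on those days of WT-2. Both systems had Ddx3y RNA at every stage, at a higher level in Gatad2a-/-. The Y-linked genes Kdm5d, Eif2s3y and Uty had MEF differences of 0.64, 2.89 and 1.46. The X-linked noncoding RNA gene Xist was also higher in Gatad2a-/- MEF, by 1.34, and its difference in change was -1.86. The sex of the cells was not tested.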
